A study of Mus musculus with 16 samples.

Results

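Transcripts of 40 genes that serve DNA replication and mitosis were followed in sections of the brachiocephalic artery, an artery off the aortic arch where plaques form in mice fed a fatty diet. The genes were picked by name, all 40 were present among the 55356 named genes of the count table, and 29 passed a filter on low counts and were tested. They comprised 14 licensing and helicase genes, 5 genes of nucleotide supply, 5 of the polymerases and the replication fork, the proliferation genes Mki67 and Top2a, 4 cyclin and Cdk genes, 6 mitotic kinase and checkpoint genes and 4 genes of the spindle and of anaphase. The 11 genes that missed the filter were Gins1, Orc1, Cdc6, Pola1, Rfc4, Fen1, Ccna2, Aurka, Bub1, Birc5 and Kif11, and none of the 40 was at 0 in every library.

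The 16 mice were female and Apoe-/-, which makes them hypercholesterolaemic, and 8 were also Mif-/- and so lacked macrophage migration inhibitory factor, an inflammatory cytokine. A Western-type diet of 0.2% cholesterol and 21.2% fat was given from 6 weeks of age. There were 4 mice in each of 4 groups: Apoe-/- at 24 weeks of diet, Apoe-/-Mif-/- at 24 weeks, Apoe-/- at 42 weeks and Apoe-/-Mif-/- at 42 weeks. Each library was amplified by Smart-seq2 from 1 ng of RNA from pooled whole-vessel sections of 1 mouse. This method keeps neither the strand nor molecular identifiers. Libraries are numbered 1 to 4 within a group, and the number is a name only. The series title names aging and protection by Mif loss as the subject, and the question put to these genes was how far local cell division in the vessel differed among the 4 groups.

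Before S phase, the origin recognition complex, Cdc6 and Cdt1 load the Mcm2-7 helicase onto origins, and Cdc45 and the GINS proteins then activate it. Polymerases copy the strands on the sliding clamp PCNA while ribonucleotide reductase, thymidylate synthase, thymidine kinase and dUTPase supply nucleotides. Cyclin B with Cdk1, the Polo and Aurora kinases and the anaphase-promoting complex later drive mitosis. In plaques, macrophages, smooth muscle cells and T cells are known to divide, and Ki-67 and PCNA are the usual labels of such cells.

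Total counts ran from 378066 in Apoe-/- library 1 at 42 weeks to 8649518 in Apoe-/- library 3 at 24 weeks, and mitochondrial transcripts made up 0.751% to 10.2% of them. Mif itself was present at 23.2 to 301 CPM (counts scaled to a common library size, corrected for composition) in the 8 libraries with an intact gene. In the 8 Mif-/- libraries it was present at 2.39 to 19.9 CPM. Apoe, targeted in all 16 mice, stood at 2.58 to 194 CPM in 15 libraries and at 1127 CPM (1615 counts) in library 4 labelled Apoe-/- at 42 weeks. That value goes against the label, and which part of the gene the counts cover is not given in the sources used here. Vessel markers were present in every library: 8 smooth muscle genes summed to 889 to 17260 CPM, 10 macrophage genes to 1840 to 35210 CPM and 7 endothelial genes to 221 to 4501 CPM. Library 4 of the Apoe-/- mice at 24 weeks and 2 others stood apart. In the first, 12 thymocyte markers summed to 3954 CPM against 5.54 to 169.9 CPM in the other 15 libraries. Of those 12 markers, 11 had at least 10 counts there, among them the recombinase Rag1 at 235 CPM and terminal transferase Dntt at 182 CPM, while Rag2 had 5 counts. Library 1 of the same group had the highest sums of white adipocyte (13700 CPM), brown adipocyte (13610 CPM) and striated muscle markers (5118 CPM), the lowest of macrophage (1840 CPM) and smooth muscle markers (889 CPM) and the highest mitochondrial share. In library 2 of the Apoe-/- 42 week group the highest sums were those of erythroid (20090 CPM), macrophage (35210 CPM) and endothelial markers (4501 CPM). The macrophage sum in library 2 of the Apoe-/-Mif-/- mice at 42 weeks was close to it, at 33190 CPM. The codes in the labels begin P7C for all 4 Apoe-/-Mif-/- libraries from 24 weeks and P7B for the other 12; what the letters stand for is not stated, and for these 4 code and group cannot be told apart.

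Most of the 40 genes were scarcely detected in most arteries. Of the 640 values (40 genes in 16 libraries), 28.4% were 0 counts, 30.2% were 1 to 3 counts and 30.8% were at least 10 counts. In the Apoe-/- mice at 24 weeks 1, 20, 24 and 27 of the 40 genes had at least 10 counts, and in the Apoe-/-Mif-/- mice at 24 weeks 9, 22, 20 and 10 did. At 42 weeks the numbers were 4, 16, 6 and 6 in the Apoe-/- and 7, 4, 17 and 4 in the Apoe-/-Mif-/- mice. The ranges of the groups overlapped, although 3 of the 4 Apoe-/- libraries at 24 weeks, with 20, 24 and 27 genes, were above every library at 42 weeks. So were libraries 2 and 3 of the Apoe-/-Mif-/- mice at 24 weeks, with 22 and 20 genes. At 24 weeks the mean was 18 ± 11.7 genes in the Apoe-/- mice and 15.2 ± 6.7 in those without Mif (SD, n = 4). After 42 weeks it was 8 ± 5.42 and 8 ± 6.16 genes, and the Apoe-/- mean at 24 weeks was 15 ± 12.3 without the thymocyte-rich library (n = 3).

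Since deeper libraries hold more counts of any gene, the share of the 29 tested genes with at least 10 counts was set beside that of all 10634 genes tested. In the thymocyte-rich library it was 86.2% against 77.1%, a surplus of 9.1 points. In the other 15 libraries the tested replication and mitosis genes were below all tested genes by 8.1 to 60.3 points. The widest gap was in Apoe-/- library 1 at 24 weeks, in which none of the 29 reached 10 counts while 60.3% of all tested genes did; that is the library with the highest fat and striated muscle markers, whose part in the gap was not tested. The narrowest of the 15 was in Apoe-/- library 2 at 42 weeks, with 51.7% against 59.8%.

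**Figure D1:**
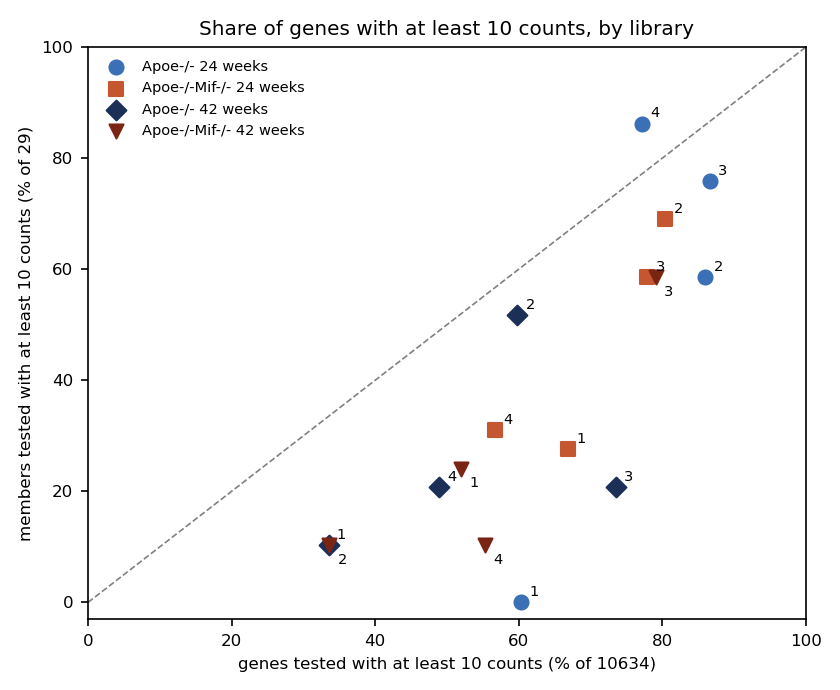
Share of tested genes with at least 10 counts in each of the 16 libraries, for all 10634 genes tested (x axis, %) and for the 29 replication and mitosis genes tested (y axis, %); colours and shapes mark the groups, digits the libraries, and the dashed line marks equal shares. Library 4 of the Apoe-/- mice at 24 weeks lies above the line at 86.2% against 77.1%, and the other 15 libraries lie below it.

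What counts there were sat in few libraries. For a typical gene of the 40, 1 library held 52.2% of its CPM summed over the 16 libraries (median, range 22% to 98.8%), and for 21 of the 40 that library held over 50%. Among the tested genes 11 of 29, or 37.9%, passed 50% in 1 library, against 18.7% of all tested genes. The median biological coefficient of variation that edgeR fitted was 1.49 for them and 1.31 for all tested genes. Orc1, a subunit of the origin recognition complex, was the extreme, with 82 of its 86 counts in library 2 of the Apoe-/-Mif-/- mice at 42 weeks. Aurka, the Aurora kinase of the spindle poles, had 484 of its 532 counts in library 4 of that group. Library 4 of the Apoe-/- mice at 24 weeks held the highest CPM of 9 of the 40 genes, more than any other library, and library 2 of the Apoe-/- mice at 42 weeks held that of 7.

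**Figure D2:**
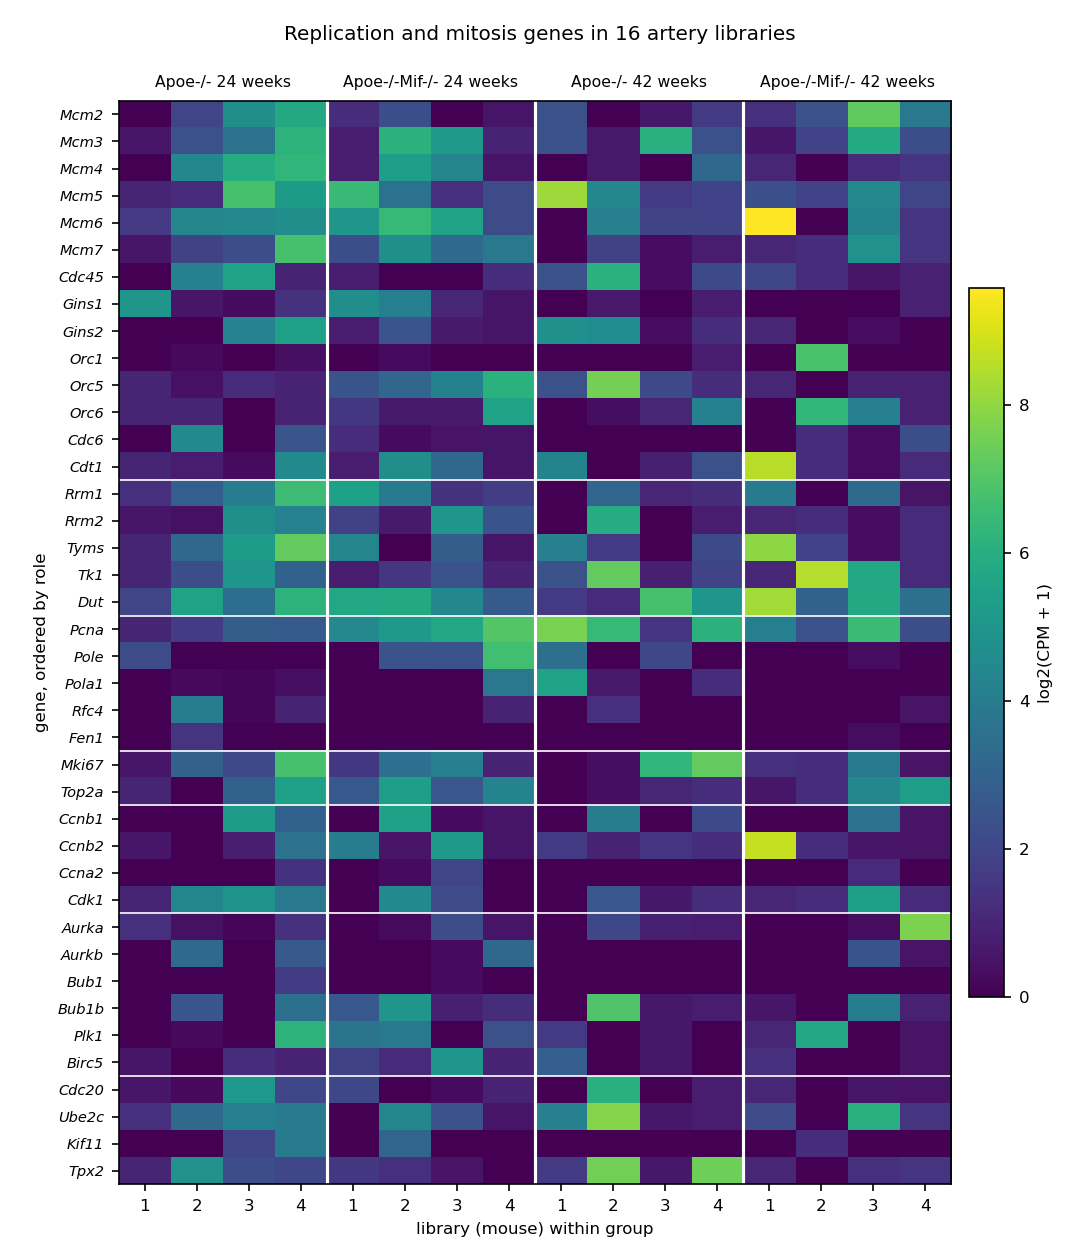
Level of the 40 genes, as log2(CPM + 1) on a colour scale, by library (columns, 4 per group) and by gene (rows, ordered by role from licensing to spindle and anaphase, with white lines between roles). Library 4 of the Apoe-/- mice at 24 weeks is filled through most roles, with 27 of 40 genes at 10 or more counts. Library 3 of that group has 24 such genes, and library 2 of the Apoe-/-Mif-/- mice at 24 weeks has 22. In some other columns single bright cells stand among dark ones, as for Orc1 and Aurka in the Apoe-/-Mif-/- mice at 42 weeks.

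Summed over the 40 genes, the level was 57.6, 255, 563 and 1119 CPM in the Apoe-/- and 348, 596, 366 and 434 CPM in the Apoe-/-Mif-/- mice at 24 weeks. At 42 weeks it was 660, 1270, 278 and 505 CPM and 2180, 652, 679 and 310.1 CPM. All groups overlapped, with means of 499 ± 463, 436 ± 113, 678 ± 425 and 955 ± 834 CPM in the same order (SD, n = 4), and 292 ± 255 CPM in the Apoe-/- mice at 24 weeks without the thymocyte-rich library. High sums came about in different ways. In the thymocyte-rich library the 5 leading genes made up 48.8% of the sum, with CPM not scaled by gene length. In library 1 of the Apoe-/-Mif-/- mice at 42 weeks, the one with the highest sum, the 5 leading genes made up 97.4%, and in library 4 of that group Aurka alone made up 67.1%. In bulk tissue, fewer dividing cells and less RNA per dividing cell cannot be told apart.

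**Figure D3:**
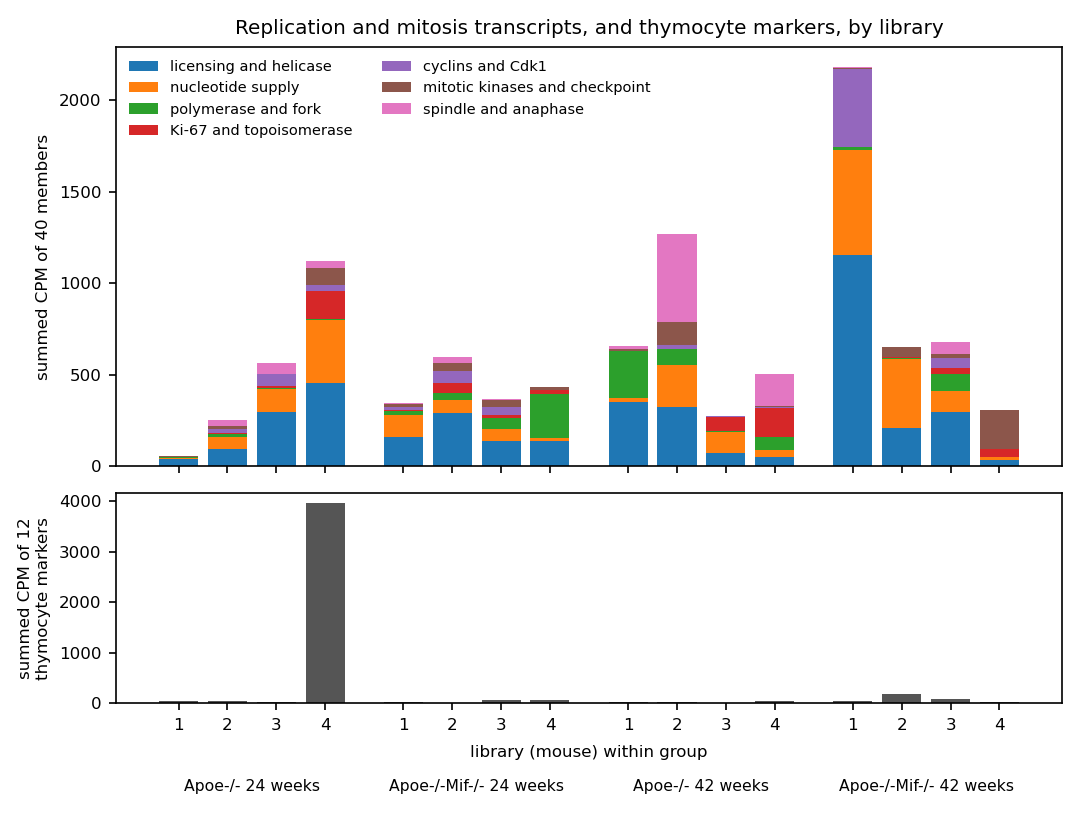
Upper panel: summed CPM of the 40 genes in each library, stacked by role; lower panel: summed CPM of 12 thymocyte markers in the same libraries. Both axes start at 0, and the thymocyte bar of 3954 CPM stands over library 4 of the Apoe-/- mice at 24 weeks, while the tallest upper bar, 2180 CPM, stands over library 1 of the Apoe-/-Mif-/- mice at 42 weeks.

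Ki-67 and topoisomerase II alpha are both made by cycling cells, Ki-67 as a coat of mitotic chromosomes and the topoisomerase to untangle replicated DNA. Mki67 was present at 0.505, 6.75, 3.38 and 110.3 CPM in the Apoe-/- and at 1.97, 10.3, 16.4 and 0.925 CPM in the Apoe-/-Mif-/- mice at 24 weeks. The values at 42 weeks were 0, 0.296, 79.0 and 156 CPM in the Apoe-/- and 1.54, 1.39, 13.7 and 0.43 CPM in the Apoe-/-Mif-/- mice. Libraries 3 and 4 of the Apoe-/- mice at 42 weeks and the thymocyte-rich library were thus far above the other 13, and each group held libraries near 0. The difference between genotypes at 42 weeks had a log2 fold change of -3.73 (SE 1.83, 95% interval -7.44 to -0.03) and did not pass edgeR's quasi-likelihood test after Benjamini-Hochberg adjustment over all tested genes (adjusted p = 0.287). It was -2.64 without library 4 at 42 weeks, the one with high Apoe. At 24 weeks the difference was -2.01 (SE 1.70, adjusted p = 0.919), and without the thymocyte-rich library its sign turned, to 1.05.

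Top2a had another pattern. It was present at 1.01, 0, 6.86 and 44.1 CPM in the Apoe-/- and at 5.24, 39.6, 5.07 and 18.5 CPM in the Apoe-/-Mif-/- mice at 24 weeks. After 42 weeks the gene stood at 0, 0.296, 1.04 and 1.40 CPM in the Apoe-/- and 0.514, 1.39, 20.8 and 39.99 CPM in the Apoe-/-Mif-/- mice. All 4 Apoe-/- libraries at 42 weeks were low, including the pair with the high Mki67, in which 304 and 223 Mki67 counts stood beside 4 and 2 Top2a counts. The log2 fold change between genotypes at 42 weeks was 4.34 (SE 1.92, 95% interval 0.44 to 8.24), opposite in sign to that of Mki67, and it did not pass (edgeR adjusted p = 0.245). Over all 16 libraries, both genes had at least 10 counts in 5, only 1 of the pair in 5 and neither in 6.

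The Mcm2-7 helicase is a ring of 6 different subunits. In the Apoe-/- mice at 24 weeks 0, 5, 6 and 6 of these subunits had at least 10 counts, and in the Apoe-/-Mif-/- mice 2, 6, 4 and 1 did. At 42 weeks the numbers were 1, 2, 2 and 1 and 1, 0, 5 and 1. The full set was thus met in 3 libraries, and at most 2 subunits in 10.

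The Mcm subunits were not high in the same libraries. Mcm5 was present at 1.01, 1.2, 109 and 36.6 CPM in the Apoe-/- and at 86.4, 10.9, 1.42 and 3.70 CPM in the Apoe-/-Mif-/- mice at 24 weeks. Values after 42 weeks were 287, 20.4, 2.08 and 2.79 CPM in the Apoe-/- and 4.11, 2.79, 21.6 and 3.01 CPM in the Apoe-/-Mif-/- mice. Library 1 of the Apoe-/- mice at 42 weeks was the highest, and its 287 CPM stood on 136 counts in the shallowest library. Mcm6 had 0 counts in that library. It was present at 2.02, 19.6, 21.8 and 25.3 CPM in the Apoe-/- and at 30.8, 84.1, 46.3 and 3.70 CPM in the Apoe-/-Mif-/- mice at 24 weeks, and at 42 weeks at 0, 16.8, 2.86 and 2.79 CPM and at 766, 0, 18.4 and 1.72 CPM. Its single high library, number 1 of the Apoe-/-Mif-/- mice at 42 weeks, held 1491 Mcm6 counts and 3, 1, 2, 8 and 2 counts of Mcm2, Mcm3, Mcm4, Mcm5 and Mcm7. The Mcm6 difference between genotypes at 42 weeks was 5.05 on the log2 scale (SE 1.73, edgeR adjusted p = 0.176), and 0.091 without that library.

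Cdt1, which brings the helicase to the origin, was likewise high in that library alone, with 377 CPM on 734 counts against at most 25.4 CPM elsewhere; it is named because of this value. Cdc45, an activator of the helicase that is also named after its values were seen, had 231 counts in Apoe-/- library 2 at 42 weeks, 103 and 428 in libraries 2 and 3 of the Apoe-/- mice at 24 weeks, and at most 6 in the other 13. Exons of Cdc45, Mcm7, Orc6 and Gins2 share bases with a protein-coding gene on the other strand in the GENCODE M21 annotation. Reads that lie within the shared bases cannot be told apart without strand. Over the 40 genes, 10 share exonic bases with a protein-coding gene.

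Orc5, a subunit of the origin recognition complex, was the one gene of the 40 called by the edgeR fit with TMM scaling and the filter on low counts. Its counts were 2, 2, 11 and 3 in the Apoe-/- and 7, 39, 86 and 147 in the Apoe-/-Mif-/- mice at 24 weeks, and 2, 650, 13 and 2 and 2, 0, 4 and 2 at 42 weeks. As CPM these were 1.01, 0.338, 1.20 and 0.938, then 4.58, 7.999, 17.5 and 68.0 at 24 weeks, and 4.22, 192, 3.38 and 1.40, then 1.03, 0, 0.958 and 0.860 at 42 weeks. In CPM the genotypes did not overlap at either duration, with the Mif-/- libraries above the others at 24 weeks and below them at 42 weeks. As counts they overlapped at both durations. The gap at 42 weeks, 1.40 against 1.03 CPM, stood on 2 counts in each of the libraries next to it.

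The Orc5 log2 fold change of Mif deletion was 4.76 at 24 weeks (SE 1.77, 95% interval 1.181 to 8.34, edgeR adjusted p = 0.41) and -5.96 at 42 weeks (SE 1.89, 95% interval -9.78 to -2.13, adjusted p = 0.176). Without library 2 of the Apoe-/- mice the latter was -1.79. The change of this effect between the durations, the interaction, was -10.72 (SE 2.59, 95% interval -15.95 to -5.48) and passed (edgeR adjusted p = 0.0432), with 0.686% of all tested genes called. It was the 1 call among 29 tested genes, and 5 of the 29 had an unadjusted p under 0.05 against 14.2% of all tested genes. With size factors in place of TMM it was called too (0.602% of tested genes called), as with no filter (1.54%). DESeq2 gave Orc5 no adjusted p in the interaction, so it could neither call nor miss it. It called Mcm2 and Pcna there (4.78%), and limma called 0. The call was lost on leaving out any 1 of the 16 libraries (adjusted p 0.0511 to 0.17), although the fold stayed between -11.22 and -9.39 for 15 of them. Without library 2 of the Apoe-/- mice at 42 weeks, which held 650 of the 972 Orc5 counts, the value was -6.66 (adjusted p = 0.17). At 42 weeks 3 of 4 libraries with Mif and all 4 without it held 0 to 13 counts. A processed pseudogene, Gm15421, overlaps Orc5 on the same strand in GENCODE M21; it held 30 counts in Apoe-/- library 1 at 24 weeks and at most 1 elsewhere.

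Nucleotide supply was led by Dut, the dUTPase that keeps uracil out of DNA. Dut was present at 3.03, 44.6, 10.02 and 71.6 CPM in the Apoe-/- and at 52.4, 56.2, 21.1 and 5.55 CPM in the Apoe-/-Mif-/- mice at 24 weeks. In the 42 week groups the levels were 2.11, 1.2, 109.9 and 31.4 CPM in the Apoe-/- and 304, 6.96, 54.6 and 10.8 CPM in the Apoe-/-Mif-/- mice. It was among the more evenly spread of the 40, with at least 10 counts in 12 libraries, and its log2 fold changes lay between 0.07 and 1.48 in the 4 comparisons (edgeR adjusted p at least 0.645), each of which turned sign on leaving out 1 library or another.

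Tk1, the thymidine kinase of S phase, was present at 1.01, 3.88, 32.1 and 6.88 CPM in the Apoe-/- and at 0.655, 1.85, 4.46 and 0.925 CPM in the Apoe-/-Mif-/- mice at 24 weeks. With 42 weeks of diet the levels were 4.22, 155, 0.780 and 2.79 CPM in the Apoe-/- and 1.03, 368, 51.5 and 1.29 CPM in the Apoe-/-Mif-/- mice. At 42 weeks 1 Apoe-/- and 2 Apoe-/-Mif-/- libraries were high and the others near 0. The log2 fold change of 42 against 24 weeks in the Apoe-/-Mif-/- mice was 5.67 (SE 1.91, 95% interval 1.79 to 9.54, edgeR adjusted p = 0.231), the groups overlapped, and it was 3.04 without library 2 of the 42 week group. Tk1 shares exonic bases with Afmid on the other strand. In library 2 of the Apoe-/- and library 2 of the Apoe-/-Mif-/- mice at 42 weeks, Tk1 had 524 and 264 counts and Afmid 0. Library 3 of the latter group held 215 Tk1 and 38 Afmid counts. The part of the shared bases in the values was not tested.

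PCNA, the sliding clamp of the replication fork that also serves DNA repair, was separated between the genotypes at 24 weeks. Pcna was present at 1.01, 2.2, 6.10 and 5.63 CPM in the Apoe-/- and at 21.6, 35.5, 53.0 and 129 CPM in the Apoe-/-Mif-/- mice at 24 weeks. Later, at 42 weeks, levels were 200.2, 85.4, 1.82 and 71.2 CPM in the Apoe-/- and 16.4, 4.18, 91.95 and 3.87 CPM in the Apoe-/-Mif-/- mice. At 24 weeks all 4 libraries without Mif were above all 4 with it, the log2 fold change was 3.98 (SE 1.49, 95% interval 0.95 to 7.001), and it did not pass (edgeR adjusted p = 0.429). At 42 weeks the genotypes overlapped, with a log2 fold change of -1.61 (SE 1.36, adjusted p = 0.555) and -3.43 without library 3 of the Apoe-/-Mif-/- mice. In the Apoe-/- mice 3 of 4 libraries at 42 weeks were above all 4 at 24 weeks (log2 fold change 4.56, SE 1.54, adjusted p = 0.322). The interaction was -5.58 (SE 2.00, adjusted p = 0.188). DESeq2, run as an alternative, called Pcna at 24 weeks, over time in the Apoe-/- mice and in the interaction, while limma called it nowhere.

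Of the polymerases, Pole, the catalytic subunit of the leading-strand polymerase, had 0, 22, 21 and 219 counts in the Apoe-/-Mif-/- mice at 24 weeks and 0, 0, 1 and 0 at 42 weeks. It had 7, 0, 0 and 0 counts in the Apoe-/- mice at 24 weeks and 5, 0, 12 and 0 at 42 weeks. The groups overlapped at 0, and the difference over time in the Apoe-/-Mif-/- mice did not pass (edgeR adjusted p = 0.221); with 1 count in the later group the fitted size rests on edgeR's prior count and is not given. Pola1, Rfc4 and Fen1 missed the filter, with 57, 105 and 11 counts in all 16 libraries together.

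Cdk1, the kinase that with cyclin B starts mitosis, was present at 1.01, 20.1, 28.2 and 13.4 CPM in the Apoe-/- and at 0, 23.0, 3.65 and 0 CPM in the Apoe-/-Mif-/- mice at 24 weeks. After the longer feeding the levels were 0, 5.02, 0.520 and 1.40 CPM in the Apoe-/- and 1.03, 1.39, 42.6 and 1.29 CPM in the Apoe-/-Mif-/- mice. It had at least 10 counts in 7 libraries, and in 6 of these a B-type cyclin had as well. No comparison of Cdk1 passed, with log2 fold changes of -1.22 and 2.62 for Mif deletion and -3.04 and 0.80 over time (edgeR adjusted p 0.455 to 0.966). Without library 3 of the Apoe-/-Mif-/- mice at 42 weeks, 2.62 became -0.60 and 0.80 became -2.43.

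Ccnb2, a B-type cyclin, was present at 427 CPM on 831 counts in library 1 of the Apoe-/-Mif-/- mice at 42 weeks, which held 85.8% of its summed CPM. Its other values at 42 weeks were 1.39, 0.479 and 0.43 CPM in the same group and 2.11, 0.886, 1.82 and 1.40 CPM in the Apoe-/- mice. Its 24 week levels were 0.505, 0, 0.762 and 10.9 CPM in the Apoe-/- and 15.1, 0.410, 34.1 and 0.463 CPM in the Apoe-/-Mif-/- mice. The log2 fold change between genotypes at 42 weeks was 6.13 (SE 2.15, 95% interval 1.77 to 10.49, edgeR adjusted p = 0.179), although the other 3 libraries without Mif were within or below the range of those with it. Without library 1 it was -1.07. In the library with 831 Ccnb2 counts Cdk1 had 2.

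Bub1b, a kinase-like protein of the spindle checkpoint, had 0, 408, 2 and 1 counts in the Apoe-/- mice at 42 weeks, against 1, 0, 64 and 2 in the Apoe-/-Mif-/- mice. At 24 weeks it had 0, 29, 0 and 34 counts and 8, 150, 4 and 3. Plk1, the Polo kinase that drives mitotic entry, had 0, 1, 0 and 230 counts in the Apoe-/- mice at 24 weeks, so that its counts there lay in the thymocyte-rich library. Its counts were 18, 67, 0 and 9 in the Apoe-/-Mif-/- mice at 24 weeks and 1, 0, 2 and 0 and 2, 38, 0 and 1 at 42 weeks. No difference of either gene passed (edgeR adjusted p 0.307 to 0.966). The aurora kinase Aurkb had 0 counts in all 4 Apoe-/- libraries at 42 weeks. Against a floor of 3 counts over that group, pooled levels were at least 10.5-fold higher in the Apoe-/- mice at 24 weeks. They were at least 6.65-fold higher in the Apoe-/-Mif-/- mice at 42 weeks, where Aurkb had 20 counts in all and 1 library had at least 10. The mice of a group are pooled in these bounds, which thus hold no spread between mice. Neither difference passed (edgeR adjusted p = 0.326 and 0.278).

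Ube2c, the ubiquitin-conjugating enzyme of the anaphase-promoting complex, was present at 1.52, 8.95, 16.8 and 14.4 CPM in the Apoe-/- and at 0, 20.1, 4.26 and 0.463 CPM in the Apoe-/-Mif-/- mice at 24 weeks. The 42 week libraries gave 16.9, 231, 0.520 and 0.698 CPM in the Apoe-/- and 3.60, 0, 63.2 and 1.72 CPM in the Apoe-/-Mif-/- mice. Tpx2, which activates Aurora A on spindle microtubules, was present at 1.01, 27.5, 3.81 and 3.13 CPM in the Apoe-/- and at 1.97, 1.44, 0.406 and 0 CPM in the Apoe-/-Mif-/- mice after 24 weeks. For Tpx2 after 42 weeks, levels were 2.11, 187, 0.520 and 176.5 CPM with Mif and 1.03, 0, 1.44 and 1.72 CPM without it. Exons of Ube2c share bases with Tnnc2 on the other strand, which had 37 and 61 counts in libraries 1 and 4 of the Apoe-/- mice at 24 weeks and at most 1 elsewhere. Tpx2 was low in all 8 libraries without Mif, with at most 7 counts, while the libraries with Mif held both low and high values. The log2 fold change at 42 weeks was -6.29 (SE 1.92, 95% interval -10.19 to -2.40) and did not pass (edgeR adjusted p = 0.176), the groups overlapping; it was -5.76 without the library with high Apoe, number 4, which held 253 of the Tpx2 counts, and -5.77 without library 2. Over the 4 groups Tpx2 had the smallest p of the 29 tested genes (edgeR's quasi-likelihood test of any difference, adjusted p = 0.0504).

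Library 2 of the Apoe-/- mice at 42 weeks held the highest values of Ube2c, Tpx2, Bub1b, Cdc20, Rrm2, Orc5 and Cdc45, with 203 to 781 counts each. It had 1 count of Mki67, 1 of Top2a and 0 of Plk1 and Aurkb. Beside these genes, 6 erythroid markers summed to 20090 CPM there against 136 to 6301 CPM in the other 15 libraries. Endothelial markers had their highest sum there. So did macrophage markers, at 35210 CPM against 33190 CPM in library 2 of the Apoe-/-Mif-/- mice at 42 weeks. Thymocyte markers had a summed level of at most 31.4 CPM in the Apoe-/- mice at 42 weeks. The part of these cell types in the values was not tested.

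**Figure D4:**
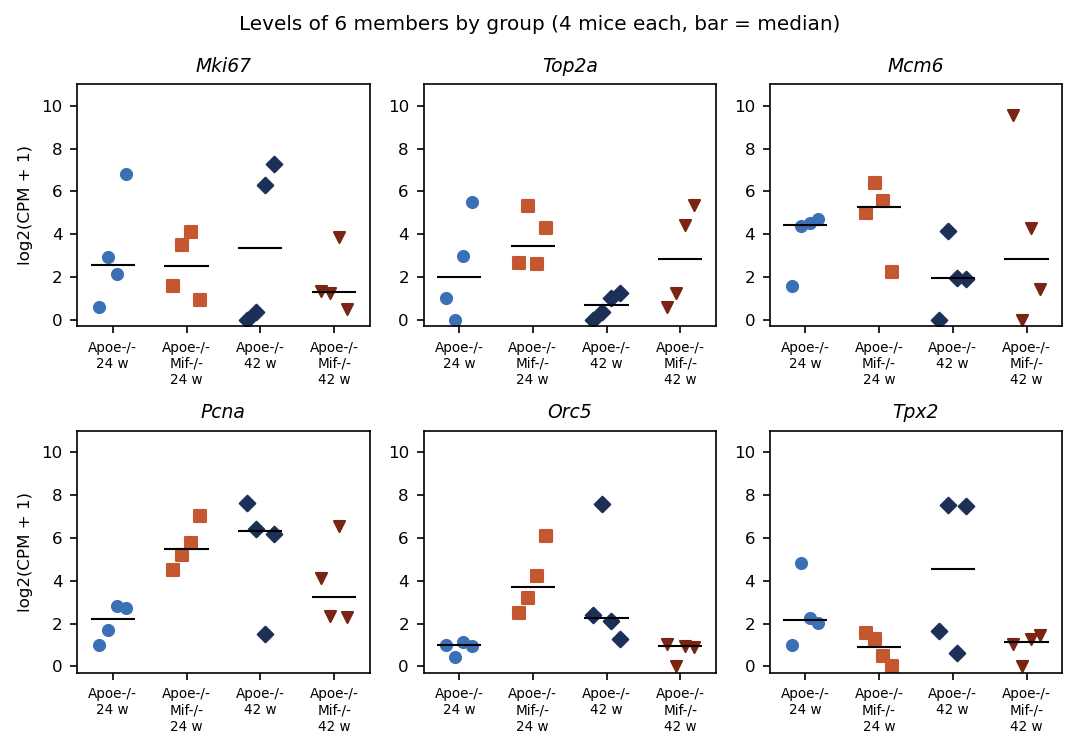
Levels of Mki67, Top2a, Mcm6, Pcna, Orc5 and Tpx2 as log2(CPM + 1) in each mouse, by genotype and weeks (w) of diet; points are mice, 4 per group, and bars are medians. Orc5 in the Apoe-/-Mif-/- mice lies above the Apoe-/- mice at 24 weeks and below them at 42 weeks, Pcna is separated at 24 weeks, and in the other 4 panels the groups overlap. The Orc5 gap at 42 weeks, 1.40 against 1.03 CPM, stands on 2 counts in each of the libraries next to it.

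Mif deletion at 24 weeks, the first of the comparisons over all 29 tested genes, separated none of them by the test. edgeR called 0 of 29, with 0.047% of all tested genes called, and 3 genes higher and 2 lower without Mif had an unadjusted p under 0.05, against 7.33% of all tested genes. DESeq2 called 1 (Pcna, higher), with 2.44% of its tested genes called, and both limma fits called 0. In all 12 were higher and 17 lower without Mif, with a median log2 fold change of -0.73 beside -0.18 for all tested genes. Without the thymocyte-rich library the median of the same 29 genes was 0.81. Groups did not overlap in CPM for 2 of the 29, Orc5 and Pcna, both higher without Mif, against 3.84% of all tested genes.

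At 42 weeks the genes lay on both sides again. Of 29, 14 were higher and 15 lower without Mif, with a median log2 fold change of -0.17 beside 0.09 for all tested genes and a range of -6.29 to 6.13. edgeR called 0, as it did of all genes (0% called), with 6 higher and 5 lower at an unadjusted p under 0.05 against 17.3% of all tested genes. DESeq2 called 1 (Tpx2, lower), with 7.28% of its tested genes called, and limma 0. Orc5, lower without Mif, was the 1 gene whose groups did not overlap in CPM, against 2.2% of all tested genes. The median of the same 29 genes was 1.81 without library 2 and 0.94 without library 4 of the Apoe-/- mice, and -1.16 without library 1 of the Apoe-/-Mif-/- mice. Over all genes of the 40 that passed the filter anew, it was 1.60, 0.48 and -1.11.

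Longer feeding was compared within each genotype. In the Apoe-/- mice 14 were higher and 15 lower at 42 weeks, with a median log2 fold change of -0.15 beside -0.12 for all tested genes. edgeR called 0 of 29 (0% of all tested genes), with 3 higher and 5 lower at an unadjusted p under 0.05 against 12.2% of all tested genes. DESeq2 called 1 (Pcna, higher), with 3.25% of its tested genes called, and limma 0. Orc5 was the 1 gene without overlap in CPM, higher at 42 weeks, against 4.16% of all tested genes. Its gap, 1.40 against 1.20 CPM, stood on 2 counts at 42 weeks and 11 at 24 weeks, and as counts the groups overlapped. For the same 29 genes the median was 1.03 without the thymocyte-rich library and -2.59 without library 2 of the Apoe-/- mice at 42 weeks.

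In the Apoe-/-Mif-/- mice 13 were higher and 16 lower at 42 weeks, with a median of -0.61 beside 0.12. edgeR called 0 of 29, with 0.122% of all tested genes called, and 2 higher and 2 lower had an unadjusted p under 0.05 against 13.1%. DESeq2 called 1 (Tk1, higher), with 5.69% of its tested genes called, and limma 0. Orc5, lower at 42 weeks, did not overlap in CPM between the groups, against 4.38% of all tested genes. For the same 29 genes the median was 0.70 without library 2 of the 24 week group and -1.72 without library 3 of the 42 week group.

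The genotype comparisons and the duration comparisons reuse the same libraries, so their values are not independent. Asked whether a gene differed anywhere among the 4 groups, edgeR called 0 of 29, with 1.03% of all tested genes called, and 11 of 29 (37.9%) had an unadjusted p under 0.05, against 18.7% of all tested genes. DESeq2 called 3 (Tk1, Pcna and Tpx2), with 9.51% of its tested genes called, and limma 0. edgeR called 1 with size factors (Tpx2, 2.62% of tested genes called) and 9 with no filter (11.8%). Without any 1 of 9 libraries the count was 1, Tpx2 each time, with 1.59% to 2.45% of tested genes called. Aurkb, the tested gene with a group wholly at 0, left each median as it was when set to its bound.

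**Figure D5:**
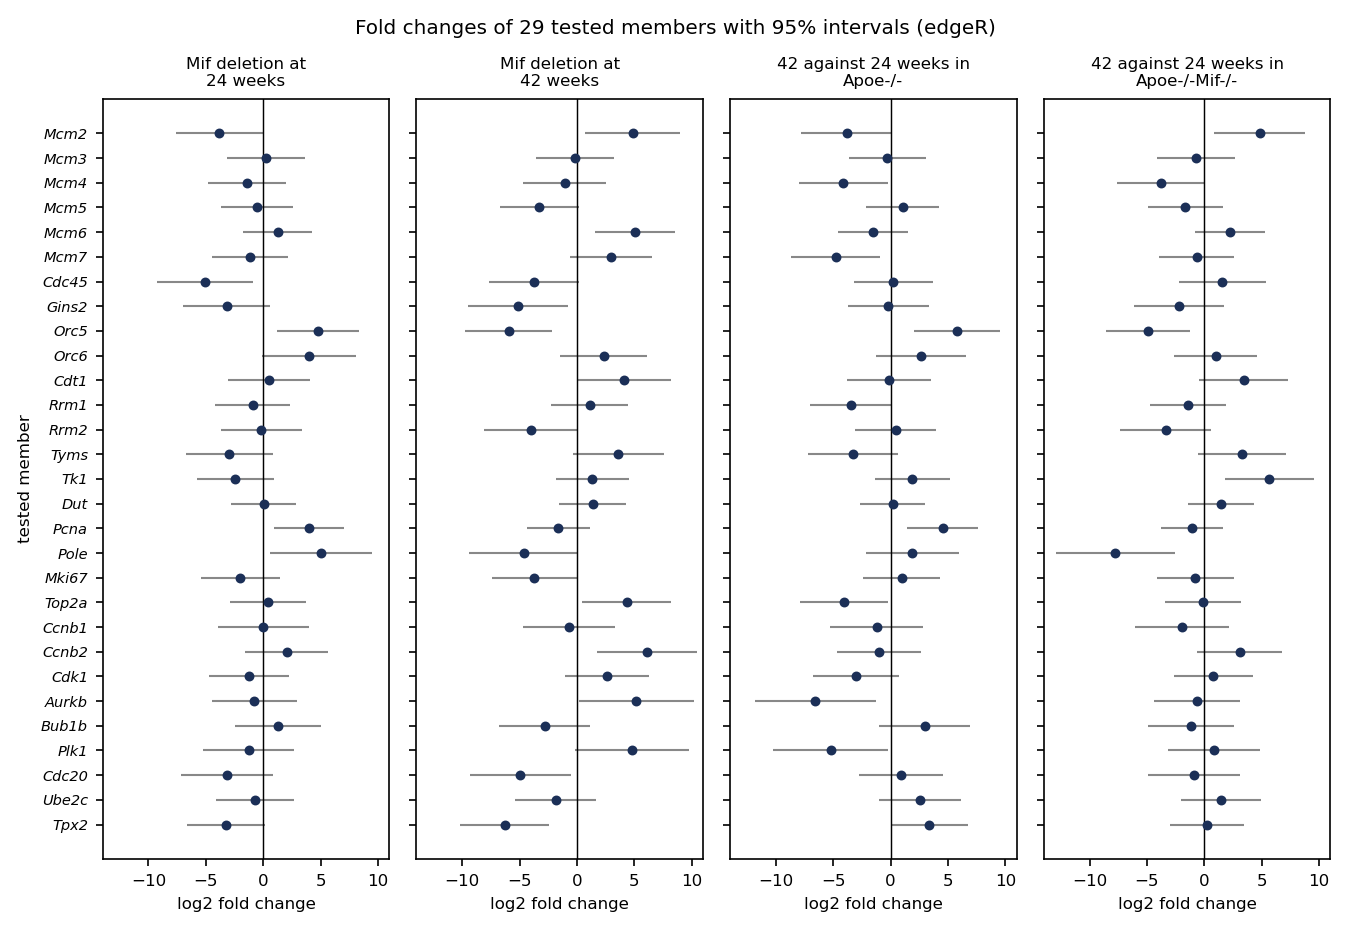
edgeR log2 fold changes of the 29 tested genes with 95% intervals, for Mif deletion at 24 and at 42 weeks and for 42 against 24 weeks in each genotype; positive values are higher without Mif or at 42 weeks. Points lie on both sides of 0 in each panel, and no point passed after adjustment over 10634 genes; the values of Aurkb and Plk1 that involve the Apoe-/- mice at 42 weeks, and of Pole and Gins2 that involve the Apoe-/-Mif-/- mice at 42 weeks, rest on groups of 0 to 3 counts.

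By role the fold changes differed in direction, with none called in the comparisons given here. For Mif deletion at 42 weeks the 3 tested spindle and anaphase genes were all lower (median -4.94, beside 0.09 for all tested genes). All 3 had their highest level in Apoe-/- library 2 at 42 weeks, and leaving out 1 library moved Ube2c to between -5.03 and 1.60. At 24 weeks the 3 were lower too (median -3.16, beside -0.18 for all tested genes). Of 5 nucleotide supply genes 4 were higher at 42 weeks (median 1.36), and 1 was higher and 4 lower at 24 weeks (median -0.91). Licensing and helicase genes divided into 5 higher and 6 lower at 42 weeks (median -0.17) and 5 higher and 6 lower at 24 weeks (median -0.54).

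The rest of the pathway was read from 4 further lists, and edgeR called 0 of their tested genes in each of the 5 comparisons, the interaction included. Of 40 other replication genes 27 were tested, and at 24 weeks 9 were higher and 18 lower without Mif (median -0.75 beside -0.18 for all tested genes). For Mif deletion at 42 weeks 12 were higher and 15 lower (median -0.19 beside 0.09). The smallest p there belonged to Prim2, the large primase subunit (log2 fold change 7.16, edgeR adjusted p = 0.176). Of 50 other mitosis genes 24 were tested, and at 42 weeks 11 were higher and 13 lower without Mif (median -0.48 beside 0.09). At 24 weeks 4 were higher and 20 lower without Mif (median -1.50 beside -0.18). The one with the smallest p was Nusap1, a spindle microtubule protein (-6.01, adjusted p = 0.383). In the thymocyte-rich library 36 of these 50 genes had at least 10 counts, against 3 to 25 in the other 15 libraries, and its part in the value was not tested.

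Of 21 genes that control G1 and entry into S phase 16 were tested. At 24 weeks 8 were higher and 8 lower without Mif (median 0.04 beside -0.18 for all tested genes). For Mif deletion at 42 weeks 5 were higher and 11 lower (median -1.16 beside 0.09). The smallest p there was that of Myc, a growth-promoting transcription factor (log2 fold change 5.69, edgeR adjusted p = 0.176). Its interaction was 9.03 (adjusted p = 0.0759). Of 18 cell cycle inhibitors 14 were tested, and 8 were higher and 6 lower without Mif at 42 weeks (median 0.275 beside 0.09). At 24 weeks 3 were higher and 11 lower without Mif (median -0.68 beside -0.18). Rb1, the retinoblastoma protein that holds E2F factors in check, had the smallest p (-6.28, adjusted p = 0.409). At 42 against 24 weeks in the Apoe-/-Mif-/- mice 8 inhibitors were higher and 6 lower (median 1.65 beside 0.12 for all tested genes). Of these, 5 and 1 had an unadjusted p under 0.05, against 13.1% of all tested genes, with the smallest p at Cdkn2c (4.65, adjusted p = 0.256).

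Promoter sequence was not used to choose the genes and was searched for words that E2F factors and mitotic promoters are known for. E2F factors switch on many S phase genes, and a CHR element near CCAAT boxes is known from promoters of mitotic genes. RefSeq windows of the 250 bases before the start (build GRCm38.p6, not the build of the counts) were found for 33 of the 40 genes and searched on both strands. The E2F words were TTTCGCGC, TTTGGCGC, TTTCCCGC and TTTGCCGC, the CHR word was TTTGAA and the CCAAT word CCAAT; E2F words can overlap one another, as can CCAAT words. Where a gene had several windows, as Mcm7 and Fen1 did, a word in any of them counted. An E2F word was found for 7 of the 33 genes (21.2%, against 2.16% of 27025 genes with a window), a CHR word for 10 (30.3% against 18.3%) and a CCAAT word for 24 (72.7% against 37.5%). Of the 20 replication genes 6 had an E2F word and 3 a CHR word, and of the 13 mitosis genes 1 had an E2F word and 7 a CHR word, each of those 7 with a CCAAT word too. A match is a string of letters and not a shown binding site.

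The windows of 6 genes whose values stand above are given 5′ to 3′ on the strand of the gene, with every match in capitals, to show where the words lie in genes of the helicase and of mitosis. Mcm5 (chr8:75109259-75109508, plus strand) and Mcm6 (chr1:128359706-128359955, minus strand) hold E2F and CCAAT words, Cdk1 (chr10:69352913-69353162, minus strand) holds words of each kind, Top2a (chr11:99024190-99024439, minus strand) and Ube2c (chr2:164769679-164769928, plus strand) hold CHR and CCAAT words, and Orc5 (chr5:22550339-22550588, minus strand) holds none of them.
Mcm5: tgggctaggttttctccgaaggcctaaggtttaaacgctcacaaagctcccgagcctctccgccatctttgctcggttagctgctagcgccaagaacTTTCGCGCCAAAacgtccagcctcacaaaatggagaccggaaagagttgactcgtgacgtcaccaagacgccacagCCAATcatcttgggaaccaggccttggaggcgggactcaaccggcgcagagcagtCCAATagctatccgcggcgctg
Mcm6: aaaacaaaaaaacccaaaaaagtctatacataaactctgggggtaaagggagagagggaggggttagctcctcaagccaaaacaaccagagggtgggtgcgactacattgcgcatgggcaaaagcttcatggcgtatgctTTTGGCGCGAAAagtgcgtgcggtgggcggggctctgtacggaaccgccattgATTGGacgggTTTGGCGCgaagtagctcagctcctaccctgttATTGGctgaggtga
Cdk1: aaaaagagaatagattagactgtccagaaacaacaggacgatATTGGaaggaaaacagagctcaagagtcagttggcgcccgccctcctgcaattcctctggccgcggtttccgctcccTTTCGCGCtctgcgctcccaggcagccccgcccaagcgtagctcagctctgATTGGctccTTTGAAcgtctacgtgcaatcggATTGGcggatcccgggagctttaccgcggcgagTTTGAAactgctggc
Top2a: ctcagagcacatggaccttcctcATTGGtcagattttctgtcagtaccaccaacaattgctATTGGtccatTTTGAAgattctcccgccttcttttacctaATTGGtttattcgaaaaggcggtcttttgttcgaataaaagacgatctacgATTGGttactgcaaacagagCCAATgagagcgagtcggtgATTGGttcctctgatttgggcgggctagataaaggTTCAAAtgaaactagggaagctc
Ube2c: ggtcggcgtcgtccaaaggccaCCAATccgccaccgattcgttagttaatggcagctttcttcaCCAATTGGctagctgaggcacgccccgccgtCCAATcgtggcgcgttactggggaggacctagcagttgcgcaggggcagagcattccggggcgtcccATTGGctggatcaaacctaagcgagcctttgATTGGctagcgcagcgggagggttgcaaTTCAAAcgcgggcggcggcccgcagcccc
Orc5: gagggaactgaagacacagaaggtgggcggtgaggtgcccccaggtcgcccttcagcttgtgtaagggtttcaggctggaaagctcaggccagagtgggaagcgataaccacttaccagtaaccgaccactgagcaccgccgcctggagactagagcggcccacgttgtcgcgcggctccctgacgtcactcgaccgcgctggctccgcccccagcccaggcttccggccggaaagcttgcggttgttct

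Genes with like words were not always high in the same library. Cdk1, Top2a and Ube2c, with CHR and CCAAT words, had 17, 1 and 781 counts in Apoe-/- library 2 at 42 weeks, 3, 93 and 4 in library 4 of the Apoe-/-Mif-/- mice at 42 weeks and 178, 87 and 264 in library 3 of that group. In the last of these libraries all 3 genes were well detected. Mcm5 and Mcm6, with E2F and CCAAT words, had 136 and 0 counts in Apoe-/- library 1 at 42 weeks and 8 and 1491 in library 1 of the Apoe-/-Mif-/- mice at 42 weeks.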

How the data were processed

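Libraries from 16 mice, 4 per group, were compared. Groups were taken from the labels, and nothing pairs the mice. The deposited table gives whole, unscaled read counts for each gene. Trimming, quality control and alignment used, per the submitters' processing notes, cutadapt 1.18, Trim Galore 0.6.4, FastQC 0.11.5 and STAR 2.5.2b, and the build was GRCm39; the counting program and annotation are not given in the sources used here. The authors also deposited variance-stabilised values on a log2 scale for 9578 genes, 24 of the 40 among them; these served as an alternative. Of 55359 entries, 1 blank (at most 0.00257% of a library) and 2 reporters were left out.

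edgeR 4.0.16 (R 4.3.3) fitted the 4 groups in 1 quasi-likelihood model with TMM scaling and 12 residual degrees of freedom, after filterByExpr (minimum count 10, total 15), which left 10634 genes. P-values were two-sided and adjusted by the Benjamini-Hochberg method over all of them, with a threshold of 0.05; intervals are 95%. CPM are TMM-scaled. Alternatives were DESeq2 1.42.0, limma 3.58.1 (voom, and on the deposited log2 values), other scaling, no filter, fits to 2 groups, and leaving out each library. The edgeR fit was run on simulated data with planted changes. Their recovery was required only at a spread smaller than that of these data, so it does not show the power here.

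The 40 genes and the gene lists were chosen with earlier results of these data known. Values in full are given for Mki67, Top2a and Pcna, the 2 genes of each role with the highest mean log2 CPM, called genes, and, in a comparison without a call, the 2 with the smallest p; of the other lists, the gene with the smallest p. Others, such as Orc1, Aurka, Aurkb, Cdt1, Cdc45, Cdc20 and Rrm2, were named after their values were seen. Depth was 378066 to 8649518 counts, and without molecular identifiers reads are not independent molecules.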

Additional observations from a re-analysis of the deposited data

Results flagged for a closer look

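Within each group of 4 libraries, values were examined for 1 that lay far from the other 3 (Dixon's test, on log2(CPM + 1) for genes). Of 72 such sets 11 held one, and chance alone gives some at this level. Among the Apoe-/- mice at 24 weeks, library 4 was high for the thymocyte markers (3954 CPM summed) and for Plk1 (71.9 CPM), and library 1 was low for Mcm6 (2.02 CPM) and was the one with Pole (3.54 CPM on 7 counts).

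Among the Apoe-/- mice at 42 weeks, library 2 was high for Bub1b (120.6 CPM) and in the number of the 40 genes with at least 10 counts (16). Among the Apoe-/-Mif-/- mice at 42 weeks, library 1 was high for Ccnb2 (427 CPM), library 3 was high for Cdk1 (42.6 CPM) and Mcm5 (21.6 CPM), and library 2 was low for Orc5 (0 CPM). Pole stood at 0.240 CPM in library 3 of that group, on 1 count.

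The fitted effect of Mif deletion on Orc5 differed between durations, with an interaction of -10.72 on the log2 scale (edgeR quasi-likelihood test, adjusted p = 0.0432). Of all tested genes 0.686% were called. The call was lost on leaving out any 1 library and with both limma fits.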

How the results depend on the processing

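No paired analysis was possible because each library came from a separate mouse and library numbers are names only. DESeq2 called 1 of the genes in each of the 4 comparisons, 2 in the interaction (Mcm2 and Pcna, 4.78% of its tested genes called) and 3 over the 4 groups. It gave an adjusted p to 21 to 23 of the 40, and none to Orc5 in the interaction. Over the 4 groups, size factors (RLE) gave 1 call (2.62% of tested genes called) and no filter 9 (11.8%). Leaving out 1 library gave 0 to 1 (0.861% to 2.45%). Leaving out the thymocyte-rich and the shallowest library together, chosen after seeing the data, gave 1 there (Tpx2, 0.908%).

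The interaction call of Orc5 was lost (0 calls) with limma voom, with limma on the deposited values, with that pair of libraries left out, with counts under 1% of a gene's highest set to 0 (also chosen after seeing the data), and without any 1 library (0 to 0). The fold was -7.26 and -4.63 with the limma fits, -11.14 without the pair and -15.94 with low counts set to 0, against -10.72. The call remained with RLE and with no filter (adjusted p 0.0441 and 0.0178).

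The median log2 fold change of the 29 genes tested in the full data ranged, on leaving out 1 library, from -1.08 to 0.81 (Mif deletion at 24 weeks), -1.16 to 1.81 (at 42 weeks), -2.59 to 1.03 (over time in Apoe-/-), -1.72 to 0.70 (over time in Apoe-/-Mif-/-) and -0.96 to 2.32 (interaction; highest without library 2 of the Apoe-/- mice at 42 weeks). Without the pair it was 0.81 at 24 weeks and 0.98 over time in Apoe-/- (0.47 and 0.75 over the 30 genes that passed the filter then). The fit to 2 groups gave 1.64 at 42 weeks on 3 tested genes. The causes were not tested. RLE moved the median of all genes from 0.09 to 0.28 at 42 weeks, from -0.12 to 0.16 over time in Apoe-/-, from 0.12 to 0.54 over time in Apoe-/-Mif-/- and from 0.26 to 0.37 in the interaction. Of the values of named genes, 1377 stayed on their side of the threshold, 20 lost a call, 4 gained one and 0 called values changed sign. The 20 were all of the Orc5 interaction, the 1 named value called in the main fit. It kept its call only with RLE and with no filter. The other values that stayed had not been called to begin with, so their staying says little. Depth limits the genes with 0 to 3 counts, and with 4 mice per group the median SE of the tested genes was 1.74 to 1.92 log2 units in the 4 comparisons.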
